A study of Mus musculus with 12 samples.

Results

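The 35 genes described here are genes of the heart muscle cell, the cardiomyocyte, measured in cultures labelled as cardiac fibroblasts. They are named by role, and were chosen with earlier results of these data known: 8 belong to the thick filament of the sarcomere, 5 to the thin filament, 7 to the Z-disc, 4 to calcium handling, 2 are natriuretic peptides, 5 serve the supply of energy and 4 are cardiac transcription factors. Each of the 35 had a single probe set, out of 19505 genes with a name on the array. The study used 12 Affymetrix whole-transcript arrays of cells from hearts of wildtype C57BL/6J mice aged 1 to 7 days, kept in culture for 10 to 14 days, by which time they had turned into myofibroblasts. All groups shared this strain, age and culture. The cells received carrier, 40 nM sCD74 (the soluble form of the MIF receptor CD74), 8 nM MIF (macrophage migration inhibitory factor, a cytokine), or sCD74 with MIF for 8 h. Each of these 4 groups had 3 arrays. In the titles, the 4 arrays of a replicate number, 1 of each treatment, share a code, so the 35 genes were compared over the 3 replicate numbers as well as over the treatments. The code has the form of a date, but the labels do not say what it stands for, nor whether the arrays of a number came from the same isolation of cells, so a p-value here measures the spread between arrays, which may be technical.

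A cardiomyocyte contracts when calcium released from the sarcoplasmic reticulum binds troponin on the thin filament and lets myosin of the thick filament pull on actin, which is anchored at the Z-disc. The calcium is then pumped back into the reticulum, and the whole cycle draws on a dense supply of fatty acids, oxygen and creatine phosphate. Fibroblasts and myofibroblasts build no sarcomeres, and the contractile fibres of a myofibroblast hold smooth muscle alpha-actin. The cardiac transcription factors Gata4, Tbx20 and Hand2 are also known from cardiac fibroblasts, and the calcium pump gene Atp2a2 from many cell types, so these 4 genes do not mark cardiomyocytes alone. The other 31 genes may have sources beside cardiomyocytes too.

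The windows of 250 bases before the start site are shown for 4 genes that were lower in replicate number 3, since muscle genes are known to share short promoter motifs. The sequences are RefSeq's, on GRCm38.p6, for Pln at chr10:53337436-53337685 on the plus strand, Myoz2 at chr3:123034988-123035237 on the minus strand, Tnnt2 (the first of its 2 entries) at chr1:135836084-135836333 on the plus strand and Actc1 at chr2:114052876-114053125 on the minus strand. Capitals mark matches to the motifs searched, on either strand. The 4 windows were chosen after the search, so that each motif is seen in at least 1 of them.

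Pln: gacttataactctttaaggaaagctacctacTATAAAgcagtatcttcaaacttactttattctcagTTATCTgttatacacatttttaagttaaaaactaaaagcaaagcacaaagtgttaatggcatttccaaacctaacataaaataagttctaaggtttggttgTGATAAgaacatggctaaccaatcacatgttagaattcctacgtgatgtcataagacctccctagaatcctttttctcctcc

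Myoz2: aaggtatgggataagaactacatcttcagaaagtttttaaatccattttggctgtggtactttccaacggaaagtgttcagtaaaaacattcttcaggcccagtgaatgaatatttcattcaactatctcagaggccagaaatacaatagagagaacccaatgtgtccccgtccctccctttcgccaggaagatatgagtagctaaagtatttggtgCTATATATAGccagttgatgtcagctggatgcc

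Tnnt2: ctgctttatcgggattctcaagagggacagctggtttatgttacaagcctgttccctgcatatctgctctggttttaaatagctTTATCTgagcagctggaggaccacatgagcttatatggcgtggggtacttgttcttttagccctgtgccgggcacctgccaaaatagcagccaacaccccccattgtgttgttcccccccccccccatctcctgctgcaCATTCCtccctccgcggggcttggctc

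Actc1: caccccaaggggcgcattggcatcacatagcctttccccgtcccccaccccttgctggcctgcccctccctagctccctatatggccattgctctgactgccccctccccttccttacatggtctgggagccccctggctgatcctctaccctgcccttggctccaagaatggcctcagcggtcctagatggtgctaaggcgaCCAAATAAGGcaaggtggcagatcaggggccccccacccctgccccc

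In Pln, the capitals are a TATA motif (TATAAA) 219 to 214 bases before the start and GATA motifs (AGATAA or TGATAA) at 183 to 178 and 82 to 77 bases before it. In Myoz2 they are a MEF2 box at 33 to 24 bases, and in Tnnt2 a GATA motif at 166 to 161 and an MCAT motif (CATTCC) at 27 to 22 bases. In Actc1 they are a CArG box, known as a site of serum response factor, at 47 to 38 bases. A MEF2 box can contain the letters of the TATA motif, but no marked matches overlapped in the windows printed. Of the 35 genes, 30 had a window, in 38 entries. The CArG box stood in 5 of these 38 windows (Actc1, Ldb3, Myl3 and Myl7) and in 1.467% of the 32851 mouse windows of this length. The MEF2 box stood in 4 of 38 (Casq2, Mybpc3, Myoz2 and Ttn) against 2.919% of all, the GATA motif in 9 against 16.596%, the MCAT motif in 7 against 12.642% and the TATA motif in 4 against 12.368%. The 3 windows of Mb held none of the 5. A match is only a match of letters: no binding was measured. Atp2a2, Tcap, Gata4, Cox6a2 and Xirp1 had no entry.

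All values are log2 values as deposited, and 1 unit is a 2-fold difference if that scale was not stretched. The values reached 18.39, above the 16 that a 16-bit scanner can give, and the scale sets how large a difference is as a fold. The medians of the arrays ranged from 8.01 to 8.14. The median of the 5222 negative control probe sets of an array, used here as its background, lay between 7.37 and 7.90. The median of the positive controls stood above it by 3.77 to 4.17 on the arrays of number 1, 4.06 to 4.25 on those of number 2 and 3.67 to 4.17 on those of number 3, and the part of this gap in the results was not tested. The cultures carried the fibroblast label's markers: all 13 fibroblast marker genes measured, among them Sparc and Dcn, lay above background on all 12 arrays. The number of arrays limits the precision of every value.

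Of the 35 cardiomyocyte genes, 14 lay above background on all 12 arrays, 12 on some and 9 on none (Myl7, Tnni1, Nppb, Mybpc3, Csrp3, Tcap, Nkx2-5, Ckmt2 and Smpx). For these 9 both sides of any comparison were below background, so their differences give no fold. On each array of number 1, 24 or 25 of the genes were above background, on those of number 2 it was 23 or 24, and on those of number 3 it was 15 to 19. Above the 95th percentile of the negative controls, a stricter line, stood 6 or 7 of the genes in number 1, 6 to 9 in number 2 and 4 in number 3.

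Most of the sarcomere, calcium handling and energy genes were lower on the arrays of replicate number 3 than on those of numbers 1 and 2, under carrier and under each treatment. Myl2, the regulatory light chain of ventricular myosin, lay above background on every array and differed by -3.08 ± 0.15 (SE) from number 2 and -2.64 ± 0.15 from number 1. Of the 10150 genes above background on all 12 arrays, it had the lowest difference against number 2, and Mb, Tnnt2, Fabp3, Actn2 and Actc1 were also among the lowest 10. Against number 1, Myl2 was the only one of the 35 among the lowest 10 of these genes. In number 3, Myl2, Mb, Fabp3, Actn2 and Actc1 lay between background and the 95th percentile of the negative controls. On the sCD74 array of number 3, Mb read 8.07 with background at 7.90. The sizes of these differences may thus be compressed. Phospholamban (Pln), the inhibitor of the calcium pump, was below background on all 4 arrays of number 3, so its differences are bounds: number 2 stood at least 2.75 and number 1 at least 2.46 above number 3. These bounds take the negative control median as the floor. Pln lay under the stricter 95th percentile of the negative controls on every array, so against that line no bound can be given. The cells that held these RNAs were not identified. Between these arrays, fewer cardiomyocytes, less of these RNAs per cardiomyocyte and other sources of the signal cannot be told apart.

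In the fit over replicate numbers, with treatment as a term and 4 arrays in each number, 21 of the 35 genes were lower in number 3 than in number 1 and 0 were higher (adjusted p under 0.05). Of all genes, 3.75% were lower, 5.48% higher and 9.23% called in either direction. Against number 2, 16 of the 35 were lower and 0 higher, where 0.708% of all genes were lower, 0.441% higher and 1.15% called in all. These 16 are among the 138 genes of the array that were lower. Leaving out single arrays brought the count of all genes called against number 2 from 224 to between 59 and 227, and that of the 35 to between 13 and 18. The median difference of the 35 genes was -0.53 against number 1 and -0.67 against number 2, beside -0.02 and -0.01 over all genes. The 2 comparisons share the arrays of number 3. In 14 genes both were called: Actc1, Actn2, Casq2, Ckmt2, Fabp3, Mb, Myh6, Myh7, Myl2, Myoz2, Pln, Tnnc1, Tnni3 and Tnnt2. Any difference among the 3 numbers (moderated F) was called in 24 of the 35 and in 14.9% of all genes. In 20 of the 35 genes all 4 arrays of number 3 lay below the other 8, which held for 0.713% of all genes. The mean of number 3 was the lowest of the 3 in 31 of the 35, and in 29.88% of all genes.

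**Figure D1:**
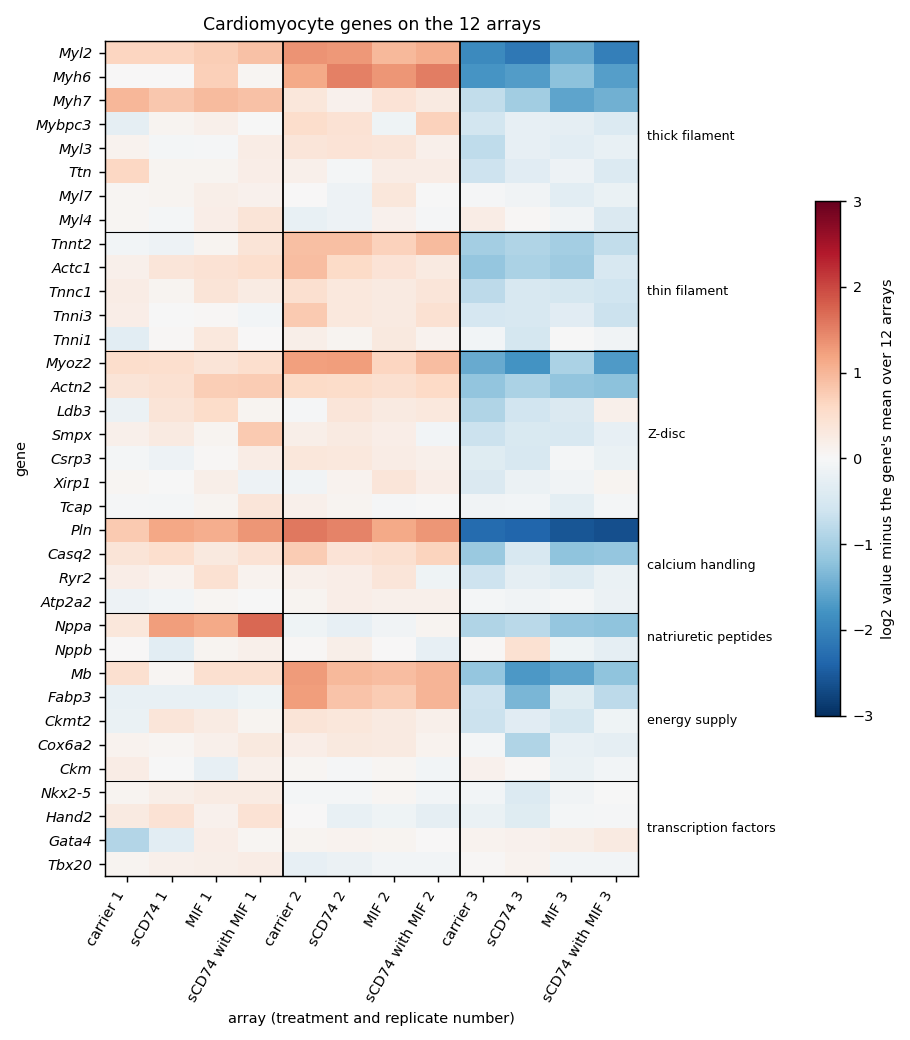
Log2 value of each of the 35 cardiomyocyte genes (rows, by role) on each of the 12 arrays (columns, by replicate number), minus the gene's own mean over the 12 arrays; red is above that mean and blue below it. The 4 columns of number 3 are blue for most sarcomere, calcium handling and energy genes, deepest for Pln, and near white for the transcription factors.

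In the thick filament, 4 of 8 genes fell from number 1 to number 3 and 5 of 8 were lower in number 3 than in number 2. Values of single arrays are given throughout in the order carrier, sCD74, MIF and sCD74 with MIF. Myl2 read 11.36, 11.37, 11.47 and 11.59 in number 1, 12.07, 12.02, 11.69 and 11.81 in number 2, and 8.81, 8.56, 9.22 and 8.66 in number 3. The arrays of number 3 stood apart from the other 8, and the adjusted p was 2.74e-06 against number 1 and 3.40e-07 against number 2. Myh6, the alpha heavy chain that is the main myosin of the adult mouse heart, read 9.50, 9.50, 10.20 and 9.55 in number 1, 10.63, 10.999, 10.80 and 11.02 in number 2, and 7.71, 7.80, 8.25 and 7.82 in number 3. The 3 numbers did not overlap, and 1 array of number 3 was below background. Number 3 differed by -1.79 ± 0.14 from number 1 (adjusted p = 2.40e-05) and by -2.97 ± 0.14 from number 2 (adjusted p = 3.23e-07).

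Myh7, the beta heavy chain of the fetal ventricle, lies next to Myh6 in the genome and is close to it in sequence, so a shared signal of their probes cannot be told apart. It read 7.89, 7.70, 7.84 and 7.77 in number 1, 7.22, 7.02, 7.30 and 7.14 in number 2, and 6.14, 5.85, 5.30 and 5.46 in number 3. The numbers did not overlap here either, but their order differed from that of Myh6, with number 1 on top. All arrays of numbers 2 and 3 were below background. The differences of number 3 were -2.12 ± 0.15 from number 1 (adjusted p = 8.53e-06) and -1.49 ± 0.15 from number 2 (adjusted p = 3.83e-04). Counted from background, number 1 stood at least 0.17 above number 3, number 1 stood at least 0.35 above number 2, and no size can be given between numbers 2 and 3. Such bounds set the mean of the brighter arrays against, for each dim array, the higher of its background and its own value. All bounds given here hold only against the negative control median, not against the 95th percentile of the negative controls.

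Myl3, the essential light chain of the ventricle, read 8.40, 8.25, 8.28 and 8.53 in number 1, 8.67, 8.72, 8.68 and 8.47 in number 2, and 7.55, 8.05, 7.99 and 8.08 in number 3. The arrays of number 3 were the lowest 4, with 1 of them below background, and the difference passed the test against number 2 (-0.72 ± 0.13, adjusted p = 0.0231) but not against number 1 (-0.45 ± 0.13, adjusted p = 0.0508). The call against number 2 held in 13 of 18 alternatives. It was lost without the carrier, sCD74 or MIF array of number 2 or without the carrier or sCD74 array of number 3 (adjusted p up to 0.112). Titin (Ttn), the spring that spans the sarcomere, was below background on all 4 arrays of number 3 and on 2 of 4 in numbers 1 and 2, so its differences give no size. It was called lower in number 3 than in number 1 (fitted difference -0.63 ± 0.14, adjusted p = 0.0149), a call lost without the carrier array of number 3 (adjusted p = 0.0598). Against number 2 Ttn was not called (adjusted p = 0.105). Mybpc3, the cardiac myosin-binding protein C, differed from number 2 (-0.76 ± 0.16, adjusted p = 0.0462), with all arrays below background and the call held in 6 of 17 alternatives (adjusted p up to 0.167). It was lost on quantile normalization once more and without any array of number 1 except the MIF array, any of number 2 except the MIF array, or any of number 3. The atrial light chains Myl4 and Myl7 passed none of the tests among numbers: the number means of Myl4 were 9.37, 9.15 and 9.15, and those of Myl7 6.60, 6.54 and 6.33.

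In the thin filament, 4 of the 5 genes were lower in number 3 in both comparisons. Cardiac troponin T (Tnnt2), which ties the troponin complex to tropomyosin, read 13.63, 13.57, 13.81 and 14.10 in number 1, 14.61, 14.63, 14.40 and 14.66 in number 2, and 12.70, 12.80, 12.70 and 12.98 in number 3. The numbers did not overlap, and the gene stood far above background on every array. Number 3 differed by -0.98 ± 0.11 from number 1 (adjusted p = 2.20e-04) and by -1.78 ± 0.11 from number 2 (adjusted p = 4.41e-06). Cardiac alpha-actin (Actc1), the actin of the thin filament, read 11.34, 11.54, 11.62 and 11.69 in number 1, 12.10, 11.76, 11.60 and 11.44 in number 2, and 10.02, 10.23, 10.11 and 10.70 in number 3. Numbers 1 and 2 overlapped and number 3 lay below both. Its differences were -1.28 ± 0.17 (adjusted p = 8.21e-04) and -1.46 ± 0.17 (adjusted p = 0.0016). Tnnt2 and Actc1 are the genes whose printed windows hold the MCAT motif and the CArG box. The other entry of Tnnt2 held no match, and Myl7, not called among numbers, matched both motifs. A link between motif and level was not tested.

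Troponin C (Tnnc1), the calcium sensor of the complex, read 10.60, 10.43, 10.75 and 10.62 in number 1, 10.85, 10.68, 10.63 and 10.73 in number 2, and 9.59, 9.89, 9.84 and 9.76 in number 3. Cardiac troponin I (Tnni3), its inhibitory subunit, read 9.11, 8.91, 8.96 and 8.83 in number 1, 9.70, 9.23, 9.19 and 9.38 in number 2, and 8.43, 8.44, 8.58 and 8.28 in number 3. In both genes the 4 arrays of number 3 were the lowest. Tnnc1 differed by -0.83 ± 0.11 from number 1 (adjusted p = 8.13e-04) and by -0.96 ± 0.11 from number 2 (adjusted p = 0.0015). Tnni3 differed by -0.52 ± 0.11 (adjusted p = 0.0135) and -0.94 ± 0.11 (adjusted p = 0.0019). The first of these Tnni3 calls was lost without the sCD74 array of number 1 or the carrier array of number 3 (adjusted p up to 0.0640). Tnni1, the troponin I of the fetal heart and slow muscle, was below background on all arrays, with number means of 5.20, 5.35 and 5.002.

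At the Z-disc, 4 of 7 genes were lower in number 3 than in number 1 and 2 of 7 than in number 2. Myoz2 (myozenin 2), which binds alpha-actinin and calcineurin, read 8.69, 8.66, 8.56 and 8.67 in number 1, 9.40, 9.41, 8.81 and 9.08 in number 2, and 6.64, 6.37, 7.20 and 6.46 in number 3. The numbers did not overlap, and all 4 arrays of number 3 were below background. The fitted differences were -1.98 ± 0.18 from number 1 (adjusted p = 7.10e-05) and -2.51 ± 0.18 from number 2 (adjusted p = 2.58e-05), and as bounds number 1 stood at least 1.01 and number 2 at least 1.54 above number 3. Sarcomeric alpha-actinin (Actn2), which crosslinks the actin filaments, read 10.49, 10.57, 10.86 and 10.87 in number 1, 10.68, 10.66, 10.58 and 10.70 in number 2, and 8.91, 9.16, 8.93 and 8.89 in number 3. Numbers 1 and 2 overlapped, and number 3 lay below both, with differences of -1.72 ± 0.12 (adjusted p = 7.25e-06) and -1.68 ± 0.12 (adjusted p = 1.58e-05).

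Smpx, a small muscle protein linked to the cytoskeleton, read 6.50, 6.62, 6.42 and 7.13 in number 1, 6.51, 6.60, 6.54 and 6.26 in number 2, and 5.70, 5.87, 5.86 and 6.09 in number 3. Number 3 was lowest, all arrays were below background, and the difference passed the test against number 1 (-0.78 ± 0.14, adjusted p = 0.0054) and not against number 2 (-0.60 ± 0.14, adjusted p = 0.0743). Ldb3, a PDZ-LIM protein of the Z-disc, was below background on all 4 arrays of number 3, 2 of number 1 and 1 of number 2, so its differences give no size. It was called lower than in number 1 (fitted difference -0.65 ± 0.16, adjusted p = 0.0223), a call that held in 10 of 17 alternatives. The call of Ldb3 was lost without the treatment term and without the carrier, sCD74 or MIF array of number 1 or of number 3 (adjusted p up to 0.0865). Csrp3, the muscle LIM protein, was called among the 3 numbers (adjusted p = 0.0221) but in no pair of them, with means of 6.25, 6.50 and 5.97. Tcap (telethonin), which caps titin, had means of 6.87, 6.83 and 6.65 and Xirp1, a Xin repeat protein of the intercalated disc, 7.73, 7.84 and 7.55, and no test among numbers called them.

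In calcium handling, 3 of 4 genes were lower in number 3 than in number 1 and 2 of 4 than in number 2. Pln read 9.80, 10.17, 10.09 and 10.33 in number 1, 10.58, 10.48, 10.13 and 10.33 in number 2, and 6.70, 6.62, 6.42 and 6.35 in number 3. Numbers 1 and 2 overlapped, and all 4 arrays of number 3 were below background. The means were 10.10 ± 0.22, 10.38 ± 0.20 and 6.52 ± 0.16 (SD, n = 4). The fitted differences were -3.57 ± 0.14 (SE) from number 1 (adjusted p = 9.69e-08) and -3.86 ± 0.14 from number 2 (adjusted p = 3.89e-08), with the bounds given above as the sizes that background allows. Calsequestrin 2 (Casq2), which stores calcium inside the reticulum, read 7.76, 7.89, 7.68 and 7.82 in number 1, 8.13, 7.79, 7.86 and 8.04 in number 2, and 6.26, 6.90, 6.18 and 6.22 in number 3. It followed the same order, with number 3 below background on all 4 arrays. Its fitted differences were -1.40 ± 0.14 (adjusted p = 1.36e-04) and -1.57 ± 0.14 (adjusted p = 1.92e-04), and its bounds 0.15 and 0.32.

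Ryr2, the channel that releases the calcium, was lower in number 3 than in number 1 (-0.59 ± 0.13, adjusted p = 0.0128) but missed the threshold against number 2 (-0.51 ± 0.13, adjusted p = 0.0787). The call was lost without the carrier or the MIF array of number 3 (adjusted p up to 0.0601), and 2 of the 4 arrays of number 3 were below background. Atp2a2, the pump that Pln inhibits, had number means of 14.96, 15.16 and 14.91 and passed no test among numbers (number 3 against number 1 -0.05 ± 0.09, adjusted p = 0.771).

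**Figure D2:**
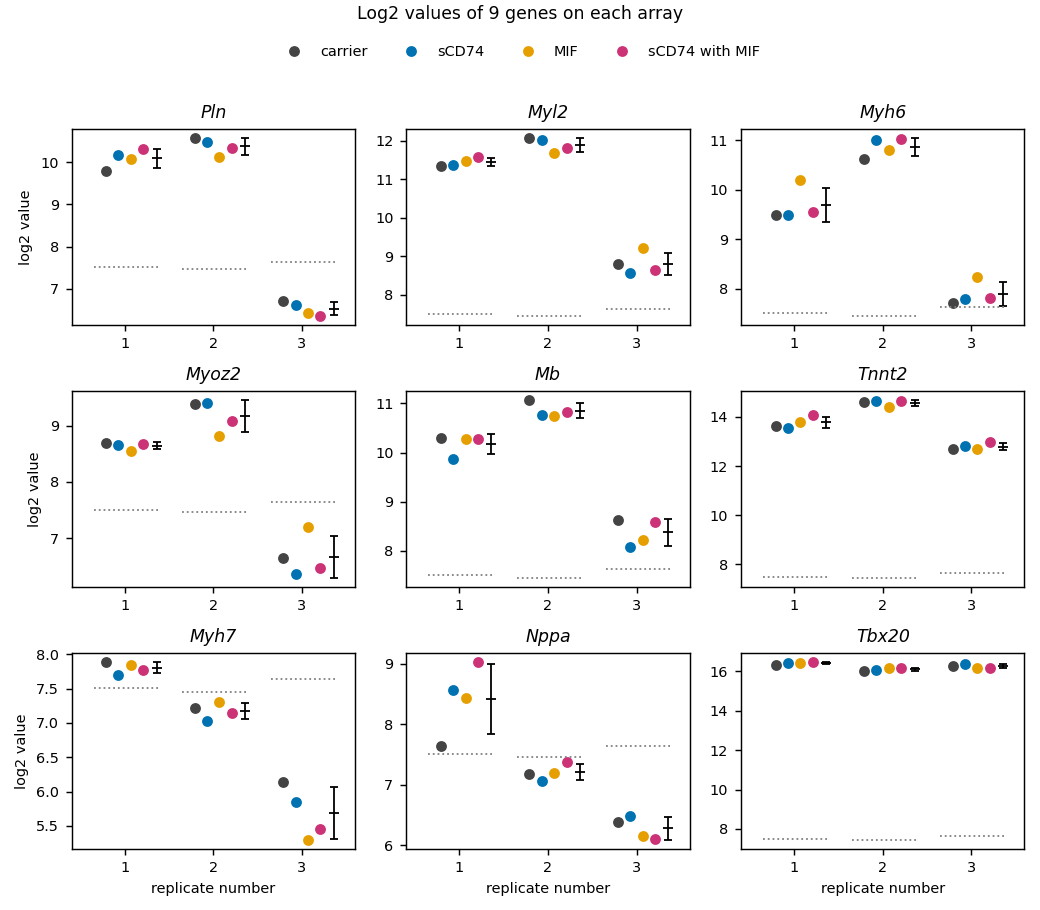
Log2 values (vertical axes, each with its own range) of 9 cardiomyocyte genes on the 12 arrays by replicate number; points are arrays coloured by treatment, bars beside them the mean and SD of the 4 arrays, and dotted lines the mean of the 4 negative control medians. Number 3 is lowest in every panel but that of Tbx20, and in Pln, Myoz2, Myh7 and Nppa its 4 points lie under the dotted line.

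Of the 5 genes of energy supply, 4 were lower in number 3 than in number 1 and 3 than in number 2. Myoglobin (Mb), the oxygen store of the muscle cell, read 10.29, 9.86, 10.28 and 10.28 in number 1, 11.07, 10.77, 10.73 and 10.83 in number 2, and 8.63, 8.07, 8.23 and 8.58 in number 3. The numbers did not overlap. Number 3 differed by -1.80 ± 0.11 from number 1 (adjusted p = 4.15e-06) and by -2.47 ± 0.11 from number 2 (adjusted p = 2.53e-07). Fabp3, the fatty acid binding protein of heart and skeletal muscle, read 9.49, 9.50, 9.50 and 9.60 in number 1, 10.98, 10.58, 10.49 and 10.74 in number 2, and 9.11, 8.36, 9.37 and 8.93 in number 3. Number 2 was the highest by far and number 3 lay closely under number 1. The difference was -1.76 ± 0.16 from number 2 (adjusted p = 1.92e-04) and -0.58 ± 0.16 from number 1 (adjusted p = 0.0412). The latter call of Fabp3 held in 10 of 18 alternatives and was lost without 1 of 8 arrays (adjusted p up to 0.150). These were all but the carrier array of number 1, the sCD74 and sCD74 with MIF arrays of number 2, and all but the MIF array of number 3.

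Cox6a2, the muscle form of a subunit of cytochrome c oxidase, had 1 array of number 3 below background, was lower than in number 1 (-0.51 ± 0.14, adjusted p = 0.0434) and was not called against number 2 (-0.58 ± 0.14, adjusted p = 0.0781). The Cox6a2 call held in 8 of 18 alternatives (adjusted p up to 0.138). It was lost without any array of number 1, any of number 2 but the sCD74 array, or any of number 3 but the carrier array. Ckmt2, the creatine kinase of muscle mitochondria, was below background on all arrays. It was called in both comparisons (-0.53 ± 0.13, adjusted p = 0.0260, and -0.69 ± 0.13, adjusted p = 0.0292), each call holding in 11 of 17 alternatives. The calls of Ckmt2 were lost without the carrier, sCD74 or MIF array of number 3. The call against number 1 was also lost without the sCD74, MIF or sCD74 with MIF array of number 1 (adjusted p up to 0.101), and the call against number 2 without the carrier, sCD74 or MIF array of number 2 (adjusted p up to 0.118). Ckm, the creatine kinase of the cytosol, had number means of 9.49, 9.46 and 9.43 and no call.

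Of the 2 natriuretic peptides, Nppa was called and Nppb could not be measured above background. Nppa, the atrial peptide that the fetal ventricle also makes, read 7.64, 8.56, 8.44 and 9.03 in number 1, 7.18, 7.06, 7.19 and 7.38 in number 2, and 6.39, 6.49, 6.14 and 6.10 in number 3. The numbers did not overlap, with number 1 highest and all arrays of numbers 2 and 3, and the carrier array of number 1, below background. The fitted difference of number 3 was -2.14 ± 0.21 from number 1 (adjusted p = 1.01e-04, at least 0.79 as a bound) and -0.92 ± 0.21 from number 2 (adjusted p = 0.0577). Nppb, the brain-type peptide, read 6.04, 5.69, 6.10 and 6.16 in number 1, 6.05, 6.19, 6.02 and 5.76 in number 2, and 6.06, 6.47, 5.90 and 5.75 in number 3. Every array was below background, and the numbers overlapped throughout. Nppa and Nppb are neighbours in the genome.

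Among the transcription factors, 1 of 4 was lower in number 3 than in number 1 and 0 of 4 than in number 2. Hand2, a basic helix-loop-helix factor of the developing ventricle, read 9.52, 9.68, 9.38 and 9.69 in number 1, 9.25, 9.02, 9.12 and 8.99 in number 2, and 9.05, 8.90, 9.19 and 9.22 in number 3. Number 1 was above both others, which overlapped. The difference of number 3 was -0.48 ± 0.12 from number 1 (adjusted p = 0.0244) and -0.01 ± 0.12 from number 2 (adjusted p = 0.992). The call was lost without the sCD74 or sCD74 with MIF array of number 1 or the carrier or sCD74 array of number 3 (adjusted p up to 0.102). Gata4, a zinc finger factor that binds the GATA motif, read 11.76, 12.32, 12.82 and 12.69 in number 1, 12.72, 12.74, 12.71 and 12.64 in number 2, and 12.74, 12.75, 12.80 and 12.90 in number 3. The carrier and sCD74 arrays of number 1 were lower than the other 10, and no test called the gene. Tbx20, a T-box factor, had means of 16.41 ± 0.06, 16.11 ± 0.08 and 16.25 ± 0.10 (SD, n = 4), and Nkx2-5, the homeobox factor of the early heart, had means of 6.87, 6.65 and 6.53, below background on all arrays.

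The 4 genes set apart above as known also from other heart cells, Gata4, Tbx20, Hand2 and Atp2a2, gave 1 call against number 1 and 0 against number 2. The other 31 gave 20 and 16, with median differences of -0.59 and -0.72. No test compared these 2 sets.

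**Figure D3:**
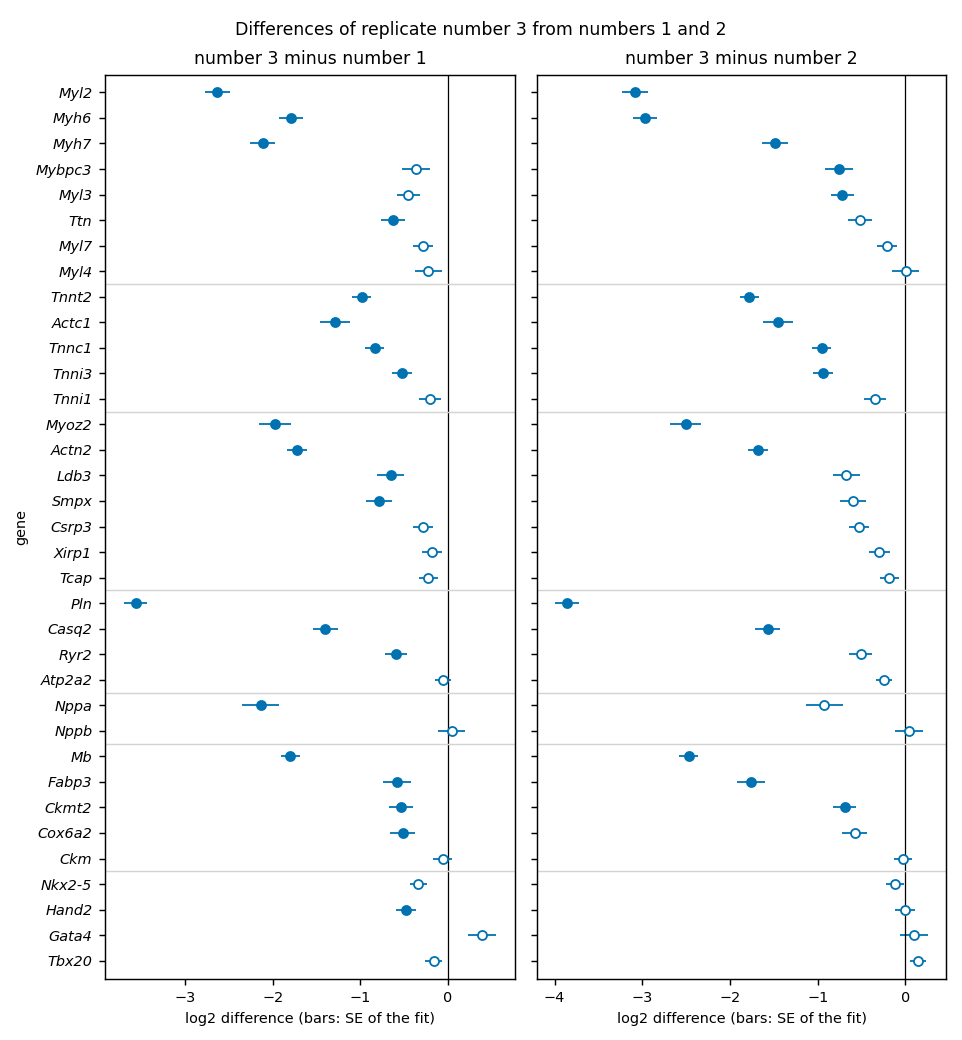
Log2 difference of replicate number 3 from number 1 (left) and from number 2 (right) for the 35 cardiomyocyte genes, by role; bars are the standard error of the fit and filled points have an adjusted p under 0.05. The filled points all lie left of 0, among them Myl2 at -2.64 and -3.08 and Pln at -3.57 and -3.86, where Pln's points rest on values of number 3 below background. Of the transcription factors, Hand2 is filled in the left panel at -0.48.

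Numbers 1 and 2 differed from each other as well, but in both directions. Of the 35 genes, 5 were higher in number 2 (Fabp3, Myh6, Tnnt2, Mb and Tnni3) and 4 lower (Nppa, Myh7, Hand2 and Tbx20), so 9 were called, where 9.5% of all genes were higher, 7.38% lower and 16.9% called in all. The 35 genes had a median difference of 0.12, and all genes of -0.02. Fabp3 was higher by 1.18 ± 0.16 (adjusted p = 3.04e-04), Myh6 by 1.17 ± 0.14 (adjusted p = 1.05e-04), Tnnt2 by 0.80 ± 0.11 (adjusted p = 2.90e-04) and Mb by 0.67 ± 0.11 (adjusted p = 0.0011). Nppa and Myh7 were called lower in number 2 (adjusted p = 0.0015 and 0.0102). Both were below background on all 4 arrays of number 2, so as bounds number 1 stood at least 0.96 above number 2 for Nppa and at least 0.35 for Myh7.

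The smaller calls between numbers 1 and 2 depended on single arrays. Tnni3 (0.42 ± 0.11, adjusted p = 0.0239) held in 12 of 18 alternatives and was lost without any array of number 1 or the carrier or sCD74 with MIF array of number 2 (adjusted p up to 0.105). Hand2 (-0.47 ± 0.12, adjusted p = 0.0150) held in 14 of 18 and was lost without the sCD74 or sCD74 with MIF array of either number (adjusted p up to 0.0679). Tbx20 (-0.30 ± 0.10, adjusted p = 0.0470) held in 7 of 18 and was lost without any single array but the sCD74 with MIF array of number 3 (adjusted p up to 0.149).

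Other genes with a role in the cardiomyocyte, in lists drawn up by role, were called less often in these counts, though no test compared the lists. The lists were not limited to genes that mark cardiomyocytes alone, and Des is also in the smooth muscle list below. Beside the counts of these lists and of the marker lists below stand the shares of all genes. In number 3, 3.75% were lower and 5.48% higher than in number 1, and 0.708% lower and 0.441% higher than in number 2. In number 2, 9.5% were higher than in number 1. A count of 1 says little about a list. Of 29 other sarcomere and Z-disc genes measured, 8 were lower and 1 higher (Fhl2, by 0.51 ± 0.13) in number 3 than in number 1, and 5 were lower and 0 higher than in number 2. The median difference of the 29 was -0.28 and -0.17. Nebl (nebulette, a Z-disc protein of the heart) had number means of 8.33 ± 0.22, 8.18 ± 0.13 and 6.94 ± 0.29 (SD, n = 4), and all 4 arrays of number 3 were below background. Number 1 stood at least 0.70 (adjusted p = 1.24e-04) and number 2 at least 0.54 (adjusted p = 0.0012) above number 3. Hspb7, a small heat shock protein of heart and muscle, had means of 14.81, 13.98 and 13.16, with differences of -1.65 ± 0.14 (adjusted p = 5.39e-05) and -0.81 ± 0.14 (adjusted p = 0.0223). Ankrd1, the cardiac ankyrin repeat protein, had means of 15.68, 14.90 and 14.88 and passed the test against number 1 (-0.80 ± 0.12, adjusted p = 0.0019) and not against number 2 (-0.02 ± 0.12, adjusted p = 0.960). Of the 29 genes, 14 were below background on all arrays.

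Of 27 other genes of calcium handling and membrane excitation, 4 were lower in number 3 than in number 1 (Trdn, Popdc2, Bves and Gja5) and 2 than in number 2 (Trdn and Popdc2), with 0 higher. Trdn (triadin), which links Casq2 to the Ryr2 channel, had means of 10.40 ± 0.11, 10.35 ± 0.11 and 9.21 ± 0.18 (SD, n = 4). Its differences were -1.19 ± 0.10 (adjusted p = 4.22e-05) and -1.14 ± 0.10 (adjusted p = 1.30e-04), the same side of 0 as Casq2 and Pln. Popdc2, a cyclic AMP binding membrane protein of heart and muscle, was below background on all 4 arrays of number 3, with numbers 1 and 2 at least 0.72 (adjusted p = 9.62e-04) and 0.97 (adjusted p = 0.0012) above it. Bves and Gja5 were below background on all arrays of number 3 too, and give no size. Kcnh2, a potassium channel of repolarisation, was called higher in number 2 than in number 1 (adjusted p = 0.0270) and not called in number 3 against number 2 (adjusted p = 0.0684), with 10 of 12 arrays below background.

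Of 17 other cardiac transcription factors, 1 was lower in number 3 than in number 1 (Tbx5, below background on all arrays) and 1 than in number 2 (Mef2c). Mef2c, which binds the MEF2 box, had means of 12.26, 12.91 and 12.36, so number 2 was the highest. Tbx18 (11.16, 10.53 and 10.95) and Meis1 (11.81, 11.31 and 11.69) were lowest in number 2, with differences from number 1 of -0.62 ± 0.12 (adjusted p = 0.0036) and -0.50 ± 0.11 (adjusted p = 0.0066). Of 18 other muscle energy genes, 3 were lower in number 3 than in number 1 (Eno3, Pdk4 and Ppargc1a) and 1 than in number 2 (Eno3). Eno3, the enolase of muscle, was below background on all 4 arrays of number 3, with numbers 1 and 2 at least 0.30 (adjusted p = 0.0039) and 0.48 (adjusted p = 0.0028) above it. Cd36, a fatty acid transporter also found on other heart cells, was highest in number 2, 0.80 ± 0.12 above number 1 (adjusted p = 5.42e-04). Pdk4, a kinase that slows pyruvate use, differed by -0.57 ± 0.10 between numbers 3 and 1 (adjusted p = 0.0051).

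Macrophage, endothelial and smooth muscle markers also moved with the replicate numbers, in orders other than that of the cardiomyocyte genes. The epicardial and skeletal muscle lists had the order of the cardiomyocyte list, with number 2 highest and number 3 lowest, over a smaller range. The mean log2 value of the 35 cardiomyocyte genes was 9.06 in number 1, 9.18 in number 2 and 8.20 in number 3, that of the 13 fibroblast markers 15.91, 15.86 and 15.94, and 0 of these 13 were called in a pair of numbers. The 14 macrophage markers had means of 12.35, 13.54 and 13.13: all 14 were higher in number 2 than in number 1, 10 were higher in number 3 than in number 1, and 2 (Csf1r and Fcgr1) lower in number 3 than in number 2. Their summed value ran from 169.98 to 175.58, 186.81 to 190.54 and 180.70 to 185.95, and 13 of 14 lay above background on all arrays, with Lyz2 at 16.94, 17.45 and 17.28 and Mrc1 at 16.31, 16.80 and 16.45. The macrophage list was lowest in number 1, where the cardiomyocyte list was not.

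The 11 endothelial markers had means of 11.16, 9.69 and 10.14 and sums of 122.31 to 123.17, 106.27 to 106.94 and 110.20 to 113.57. Of these, 8 were lower in number 3 than in number 1 and 5 higher than in number 2. Eng had means of 14.72, 14.61 and 14.74 and Cdh5 of 14.42, 11.08 and 12.41, and 10 of the 11 were above background on all arrays. The 13 smooth muscle and pericyte markers had means of 10.42, 9.87 and 9.82 and sums of 134.08 to 136.54, 126.71 to 129.46 and 126.82 to 128.12. Of them, 8 were lower in number 3 than in number 1 and 1 (Des) than in number 2, with Acta2 at 16.81, 16.51 and 16.36, Tagln at 15.95, 15.53 and 15.23, and Des and Cspg4 below background on all arrays. The endothelial list was thus lowest in number 2, and the smooth muscle list was highest in number 1.

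The 9 epicardial markers had means of 8.05, 8.07 and 7.93, with 2 (Krt8 and Wt1) lower in number 3 than in number 1 and 0 called against number 2. Their highest genes were Aldh1a2 at 13.07, 12.96 and 12.996 and Cldn15 at 10.27, 10.52 and 10.37, and 4 (Wt1, Msln, Krt19 and Lrrn4) were below background on all arrays. The 18 skeletal muscle markers had means of 6.59, 6.61 and 6.41. Of these, 11 were below background on all arrays, among them Myod1, Myf5, Pax7 and Acta1, and 1 was lower in number 3, Myl1, a light chain of fast muscle with 3 of 4 arrays of number 3 below background (fitted difference -1.53 ± 0.15 against number 1, adjusted p = 1.32e-04, and called against number 2 too, adjusted p = 5.68e-04). Tnnt1 had means of 10.24, 10.46 and 10.14 and Actn3 of 8.97, 9.08 and 8.99. The part of the other cell types in the differences of the cardiomyocyte genes was not tested.

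**Figure D4:**
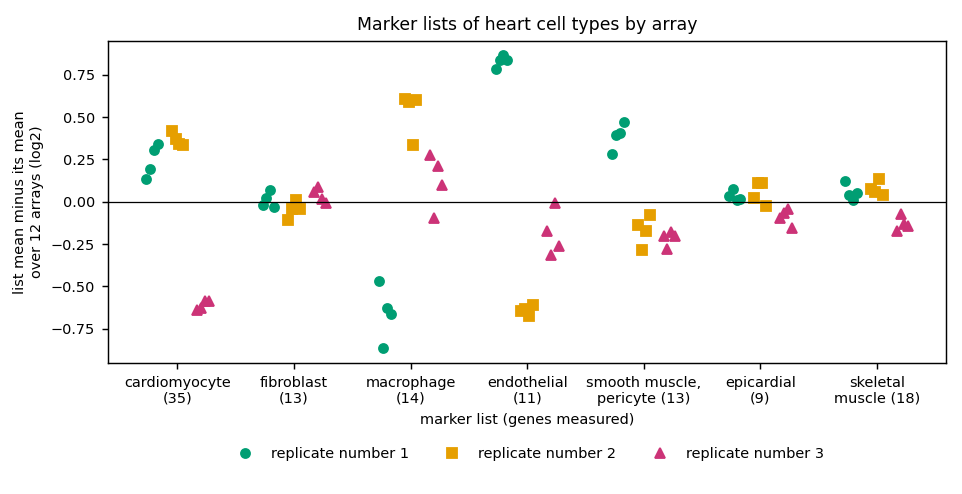
Mean log2 value of each marker list on each of the 12 arrays, minus the list's mean over the arrays (vertical axis), by list (horizontal axis, with the genes measured); colours and shapes mark the replicate numbers. The 4 arrays of number 3 are lowest in the cardiomyocyte list and, by less, in the epicardial and skeletal muscle lists. The smooth muscle list also has its lowest mean in number 3, with arrays that overlap those of number 2. The endothelial list is lowest in number 2 and the macrophage list in number 1.

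The treatments moved none of the 35 genes past the threshold. With sCD74, with MIF, with sCD74 and MIF, and for the departure of the combination from additive effects, 0 of the 35 genes and 0 of all genes (0%) were called by limma in the fit with 4 group means. At an unadjusted p under 0.05, 0 of the 35 passed in any of the 4 tests, and of all genes 350, 653, 780 and 363 did. The median differences of the 35 genes from carrier were 0.02 with sCD74, 0.05 with MIF and 0.04 with both, beside 0.00, 0.01 and 0.00 over all genes. The median standard error of a difference was 0.28.

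The smallest unadjusted p-values with sCD74 were those of Ldb3 (0.43 ± 0.31), Ckm (-0.14 ± 0.12) and Cox6a2 (-0.27 ± 0.26). With MIF they were those of Ckm (-0.26 ± 0.12), Xirp1 (0.30 ± 0.17) and Gata4 (0.37 ± 0.23). With both agents they were those of Ldb3 (0.55 ± 0.31), Gata4 (0.34 ± 0.23) and Ckm (-0.15 ± 0.12), and for the departure from additive effects those of Ckm (0.25 ± 0.18), Xirp1 (-0.23 ± 0.24) and Tcap (0.20 ± 0.21). All had an adjusted p of at least 0.999.

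Blocking on the replicate number, which takes the 4 arrays that share a code as matched, gave smaller errors and again 0 calls among the 35 and among all genes in each of the 4 tests. The median standard error of a difference from carrier fell from 0.28 to 0.15 over the 35 genes. At an unadjusted p under 0.05, 2, 3, 1 and 1 of the 35 passed with the block, and 817, 1254, 1606 and 752 of all genes. With sCD74 the smallest p of the 35 was then that of Mb (-0.43 ± 0.125, unadjusted p = 0.0048, adjusted p = 0.9998). The carrier array of Mb was the highest of the 4 in each number. With MIF the smallest p was that of Myh6 (0.47 ± 0.16, adjusted p = 0.719), and with both agents that of Ldb3 (0.55 ± 0.18, adjusted p = 0.559).

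Ldb3 read 7.10, 7.66, 7.83 and 7.35 in number 1, 7.25, 7.65, 7.54 and 7.60 in number 2, and 6.37, 6.71, 6.85 and 7.42 in number 3. Its carrier array was the lowest of the 4 in each number. Those carrier arrays were all below background, so the differences of Ldb3 from carrier give no size. This order was picked out after the values were seen and was not tested. Gata4's difference with MIF was largest in number 1, where the carrier array read 11.76 and the MIF array 12.82, while the 4 arrays of number 2 lay between 12.64 and 12.74.

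The range of the 3 number means, with a median of 0.69 over the 35 genes, exceeded that of the 4 treatment means, with a median of 0.23 and at most 0.55, in 31 of 35 genes. This count was not made over all genes, so it is not particular to the 35. Of all genes, 14.9% were called among the 3 numbers and 0% in each treatment test. Within replicate numbers 1, 2 and 3, the median difference from carrier was 0.00, -0.03 and 0.03 with sCD74, 0.12, -0.01 and 0.08 with MIF, and 0.16, -0.09 and -0.02 with both. The sign was the same in all 3 numbers for 8 genes with sCD74, 8 with MIF and 9 with both. The median difference of the 35 genes with both agents was thus above 0 in number 1 and below 0 in numbers 2 and 3.

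**Figure D5:**
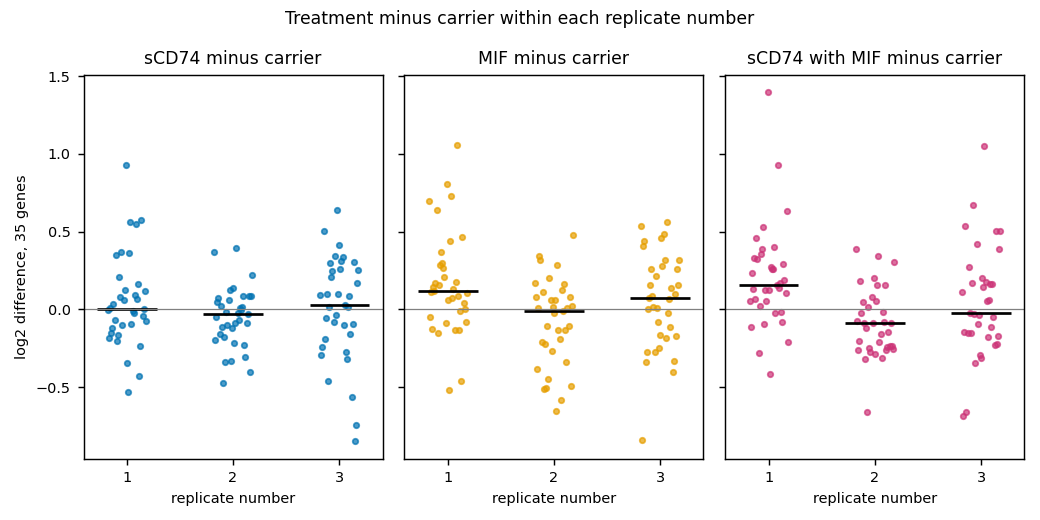
Log2 difference from the carrier array of the same replicate number (vertical axis) for the 35 cardiomyocyte genes, by treatment (panels) and replicate number; points are genes and bars the medians, which lie between -0.09 and 0.16. The points of every panel lie on both sides of 0 in each number.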

How the data were processed

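RNA of 12 cultures was measured on Affymetrix whole-transcript arrays, labelled from 150 ng total RNA with the WT Plus kit per the labels' protocols. The tools named in the submitters' processing notes are Affymetrix Expression Console and Transcriptome Analysis Console, with RMA as the method, and no version is given. The authors deposited log2 values, 1 column per array, used here as deposited. RMA corrects background and normalizes arrays to a shared distribution, which can hide a shift of all genes. Of 28846 probe sets, 6640 were controls and 2634 had no gene symbol, and all were left out of tests. For symbols with several probe sets the brightest on average was kept, leaving 19505 genes.

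All genes were fitted with limma 3.58.1 (lmFit and eBayes, two-sided) in R 4.3.3, with Benjamini-Hochberg adjustment over all genes within each test and a threshold of 0.05. Treatments were compared with 4 group means, and replicate numbers with treatment as a term. Errors of differences are standard errors of the fit. Titles give same-numbered arrays a shared code, so the replicate number as a block was an alternative. Deviations from group means correlated with r above 0.1 in 17 of 18 same-numbered pairs (median 0.433, lowest 0.097) and in 3 of 36 pairs of other numbers and groups (median -0.212). Both the 35 genes and the other lists were chosen with earlier results of these data known.

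Arrays are named by treatment and replicate number. Values of every array are given for up to 16 genes called in any test, in order of the moderated F, and for the 2 genes of each role with the largest range of number means. The 3 smallest p-values per treatment, the 3 smallest F p-values per other list and the 2 highest genes per marker list are also named. The values of Ldb3 by array, and genes named for counts of 5 or fewer or for their values with the block, were added after their values were seen. The background bounds were added after the data were seen too. The fits were tested on simulated data in which replicate numbers differed only by changes put in on purpose. That check does not cover the treatment fit where the numbers differ, as they do here.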

Additional observations from a re-analysis of the deposited data

Results flagged for a closer look

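In each of the 105 sets of 4 arrays (35 genes in 3 replicate numbers), the gap of the highest or lowest array to its nearest neighbour was set against the range of the 4. In 6 sets it exceeded Dixon's 95% critical value, where chance alone gives about 1 set in 20, or 5.25 of 105, so the number of such sets is near that of chance. Myh6 stood at 10.20 on the MIF array of number 1, with the other 3 arrays between 9.50 and 9.55. Mb stood at 9.86 on the sCD74 array of number 1, below the others at 10.28 to 10.29. Fabp3 stood at 9.60 on the sCD74 with MIF array of number 1, with the others within a span of less than 0.01 near 9.50. Actn2 stood at 9.16 on the sCD74 array of number 3, above 8.89 to 8.93, and Casq2 at 6.90 on the same array, above 6.18 to 6.26. Nkx2-5 stood at 6.75 on the MIF array of number 2, above 6.61 to 6.63, and below background like all its arrays.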

How the results depend on the processing

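The replicate number as a block changed no call of the 35 genes in the 4 treatment tests, and the smallest adjusted p was 0.559. With the block, an intensity trend and robust variance, an alternative chosen after seeing the data, 0 of the 35 were called as well, while over all genes 6 were called with both agents and 1 with MIF. The alternatives were centring each array, quantile normalization once more, a filter on dim genes, means over probe sets, trend and robust variance, leaving out each array, all arrays of a number left out (treatments) and no treatment term (numbers). Over these, the count of the 35 called was 0 in each treatment test, 14 to 22 in number 3 against 1, 13 to 23 in number 3 against 2, 6 to 12 in number 2 against 1, and 16 to 26 among the 3 numbers. Leaving out single arrays alone gave 14 to 20, 13 to 18, 6 to 11 and 19 to 24. No called difference changed sign. Some uncalled differences changed sign when single arrays were left out. In number 3 against 1, Nppb ranged from -0.156 to 0.191 and Ckm from -0.127 to 0.01. In number 3 against 2, Nppb ranged from -0.126 to 0.123, Ckm from -0.0681 to 0.0665, Myl4 from -0.136 to 0.168 and Hand2 from -0.0814 to 0.0656, with 0.0157 on centred arrays. Cox6a2 with sCD74 ranged from -0.502 to 0.0892, with 0.0209 without number 3. Calls held in all alternatives in which the gene was present for 13 of 21, 13 of 16 and 6 of 9 genes. Casq2, Myh7, Nppa and Smpx, counted among these, were removed by the filter on dim genes, so their calls were not tried there.

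The counts over all genes moved more. In number 3 against 2 the 224 genes became 734 with trend and robust variance, 540 with the filter on dim genes, and 59 to 227 without 1 array: 65, 59 and 111 without the carrier, sCD74 or sCD74 with MIF array of number 2, and 68, 69 and 97 without the same arrays of number 3. In number 3 against 1 the 1800 became 978 without the sCD74 array of number 1, and 1096 and 1155 without the carrier or MIF array of number 3. In number 2 against 1 the 3291 became 2172 without the sCD74 array of number 2, and in the test among the 3 numbers the 2900 became 1898 without the sCD74 array of number 1. Signal over background limits the genes below the negative control median, whose differences give bounds or no size.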

Other observations

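In number 1, all 3 treated arrays lay above the carrier array for Nppa: the carrier array read 7.64, sCD74 8.56, MIF 8.44 and the combination 9.03. That carrier array was itself below background, so the gaps to it give no exact size. In number 2 the 4 arrays lay between 7.06 and 7.38 and in number 3 between 6.10 and 6.49, all below background. Whether the differences from carrier varied with the replicate number was not tested.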
